A study of Mus musculus with 17 samples.

Results

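The genes described here are 51 mouse genes that move new proteins into the endoplasmic reticulum (ER), fold them there and remove those that fail. They were chosen by symbol, from a list of ER proteins, and all 51 were found among the 57638 gene IDs of 2 count tables. By role they are 5 genes of the signal recognition particle (SRP) and its receptor, 6 of the translocon, 4 of the translocon-associated protein complex and 5 of signal peptidase. There are also 7 of the oligosaccharyltransferase, 9 chaperones and co-chaperones, 6 for disulfide bonds and prolyl folding, 2 lectin chaperones and 7 of ER-associated degradation. All 51 passed the filter on low counts in both tables.

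Gene counts from RNA sequencing were available for the mouse lacrimal gland, which secretes the watery part of tears, and for organoids of it, which are cultures grown in basement membrane extract. One table holds wild-type gland tissue and uncloned wild-type organoids in expansion medium (EM) and in differentiation medium (DM), with 3 libraries each, which share the numbers 6, 7 and 8 and are called lines here. The other holds clonal organoid lines, 2 labelled wild type (WT) and 2 labelled Pax6-KO, each in EM and in DM, so every group has 2 libraries and every line is 1 clone. The protocol gives 7 days of EM for the first and, for DM, 2 days of EM followed by 5 days of DM, while the series text can be read as 7 days in either medium for the clones. The sources used here give no age, sex or strain of the mice and no makeup of the media. Nothing there says whether libraries of a group came from separate animals or cultures, so p-values measure the spread between these samples, which may be technical.

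In secretory cells, the SRP brings a ribosome that is making a secreted protein to the ER, and the chain passes through the Sec61 channel, where signal peptidase removes its signal peptide and the oligosaccharyltransferase attaches sugar chains. Chaperones such as BiP (Hspa5), oxidoreductases of the protein disulfide isomerase family and the lectins calnexin and calreticulin then fold it, and chains that fail are drawn back to the cytosol and degraded. Acinar cells of the lacrimal gland are built around this traffic. When unfolded protein builds up, the sensors Ire1, Perk and Atf6 raise many of these genes, and Atf6 acts through the ER stress response element, a promoter motif of CCAAT and CCACG held 9 bases apart.

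The promoters of these genes were searched for that element, through which Atf6 acts. Promoters, 250 bases before to 50 bases after the start, were found for 41 of the 51 members in RefSeq sequences of GRCm38.p6. The element, on either strand, was in 10 of these 41 (24.4%) and in 37 of all 27025 genes (0.137%). Its second form, ATTGG and CCACG with 1 base between them, was in 2 members (4.88%) and in 12 of all genes (0.0444%). The motif TGACGTGG was in 0 of the 41 and in 193 of all genes (0.714%). CCACG alone, which is part of both elements, was in 33 of the 41 (80.5%) and in 35.5% of all genes. The 12 members with either element were Hspa5, Hsp90b1, Dnajb11, Dnajc3, Creld2, Pdia6, Ero1lb, Calr, Canx, Herpud1, Syvn1 and Derl3. The 6 stretches shown are from members whose differences from the gland, with trimmed means, lay between -0.77 and 0.24 (log2) in either medium (Hspa5, Hsp90b1 and Pdia6) and from members further below it (Herpud1, Ero1lb and Derl3). Each runs 5′ to 3′ on the strand of its gene with the element in capitals, and Herpud1 carries the second form.
Hspa5: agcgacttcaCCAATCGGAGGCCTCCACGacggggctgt
Hsp90b1: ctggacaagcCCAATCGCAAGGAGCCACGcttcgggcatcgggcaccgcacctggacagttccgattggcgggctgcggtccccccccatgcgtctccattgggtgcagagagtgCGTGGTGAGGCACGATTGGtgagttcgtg
Pdia6: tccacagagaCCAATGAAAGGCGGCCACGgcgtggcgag
Herpud1: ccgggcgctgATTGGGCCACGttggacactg
Ero1lb: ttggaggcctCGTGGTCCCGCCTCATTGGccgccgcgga
Derl3: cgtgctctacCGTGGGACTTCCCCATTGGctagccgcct
They lie at chr2:34772015-34772053 (+), chr10:86705523-86705666 (-), chr12:17266481-17266519 (+), chr8:94386367-94386397 (+), chr13:12565672-12565710 (+) and chr10:75893232-75893270 (+). Hsp90b1 holds the element on both strands, and in Ero1lb and Derl3 it reads on the strand opposite to the gene. A match describes the letters and not a bound site.

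Library totals lay between 12801473 and 19207469 counts in the first table and between 18282059 and 22500534 in the clones. The 10 most abundant gland genes, among them Mucl2, Obp1a and 4 secretoglobins, took up 65.5% to 67.4% of all gland counts, and at most 0.000828% of any uncloned organoid library's. With marker lists chosen with earlier results known, 8 acinar and tear markers summed to between 19792 and 23191 CPM (the usual abbreviation for counts scaled to a common library size) in the gland and between 229.7 and 415 CPM in uncloned organoids, where Dnase1 was at 0. Of these 8, 7 were lower and 1 higher than in the gland in either medium with trimmed-mean scaling. The sum of 6 epithelial markers was between 1181 and 1203 CPM in the gland and between 5302 and 8877 CPM in uncloned organoids, and that of 6 basal and myoepithelial markers between 229 and 269 CPM and between 2511 and 5435 CPM. That list split: Krt5, Krt14 and Trp63 were higher in EM than in the gland, and the contractile genes Acta2, Cnn1 and Mylk lower, with a median of -0.55 over the 6 (log2). In DM, 3 of the 6 were higher than in the gland, 1 was lower and 2 were not called, with a median of 1.63. Pax6, the target of the labelled knockout, stood at 245 and 276 CPM in WT EM, 219 and 279.7 CPM in WT DM, 172 and 272 CPM in labelled KO EM and 135 and 309 CPM in labelled KO DM. The labels overlap, and a count over the whole gene need not show an edit within it, so this level gives no check of the labels, and every direction between clones is drawn from them.

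Uncloned EM and DM organoids were each compared with the gland, to see how much of the gland's ER machinery the cultures carry. The direction depended on how libraries were scaled. With trimmed-mean scaling, which sets the typical gene equal between libraries, 46 of the 51 members were lower in EM than in the gland and 1 was higher, Pdia4, where 37.4% of all genes tested were lower and 37.4% higher. With total-count scaling, 13 were lower and 30 higher, where 9.49% of all genes were lower and 83.8% higher. In DM, 46 were lower and 2 higher with trimmed means, where 37.4% of all genes were lower and 38.1% higher, and 13 were lower and 31 higher with total counts, where 9.27% and 84.0% were. With the line as a block, 2 members were higher in EM. CPM given here use trimmed-mean scaling, and each parenthesis gives a log2 fold change ± SE and the Benjamini-Hochberg adjusted p of edgeR's quasi-likelihood test. The comparisons of EM and of DM with tissue share their gland libraries.

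The members' share of all counts shows both sides of this. They held 0.789%, 0.718% and 0.935% of counts in the glands of lines 6, 7 and 8, between 1.27% and 1.36% in EM, and between 1.19% and 1.37% in DM. Without the 10 most abundant gland genes, the gland share was 2.38%, 2.20% and 2.71%, and the organoid shares stayed the same at 3 digits. The gland lay below the organoids as a share of all RNA counted and above them as a share of the RNA outside those 10 genes. The median member differed from the gland by -1.58 in EM and -1.38 in DM (log2) with trimmed means, against 0.01 and 0.02 for all genes. With total counts it differed by 0.47 and 0.59, against 2.06 and 1.98 for all genes. Relative to all genes, the members' median was thus -1.59 in EM under either scaling, and -1.40 in DM. In bulk samples, fewer cells of a type and less RNA per cell cannot be told apart.

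**Figure D1:**
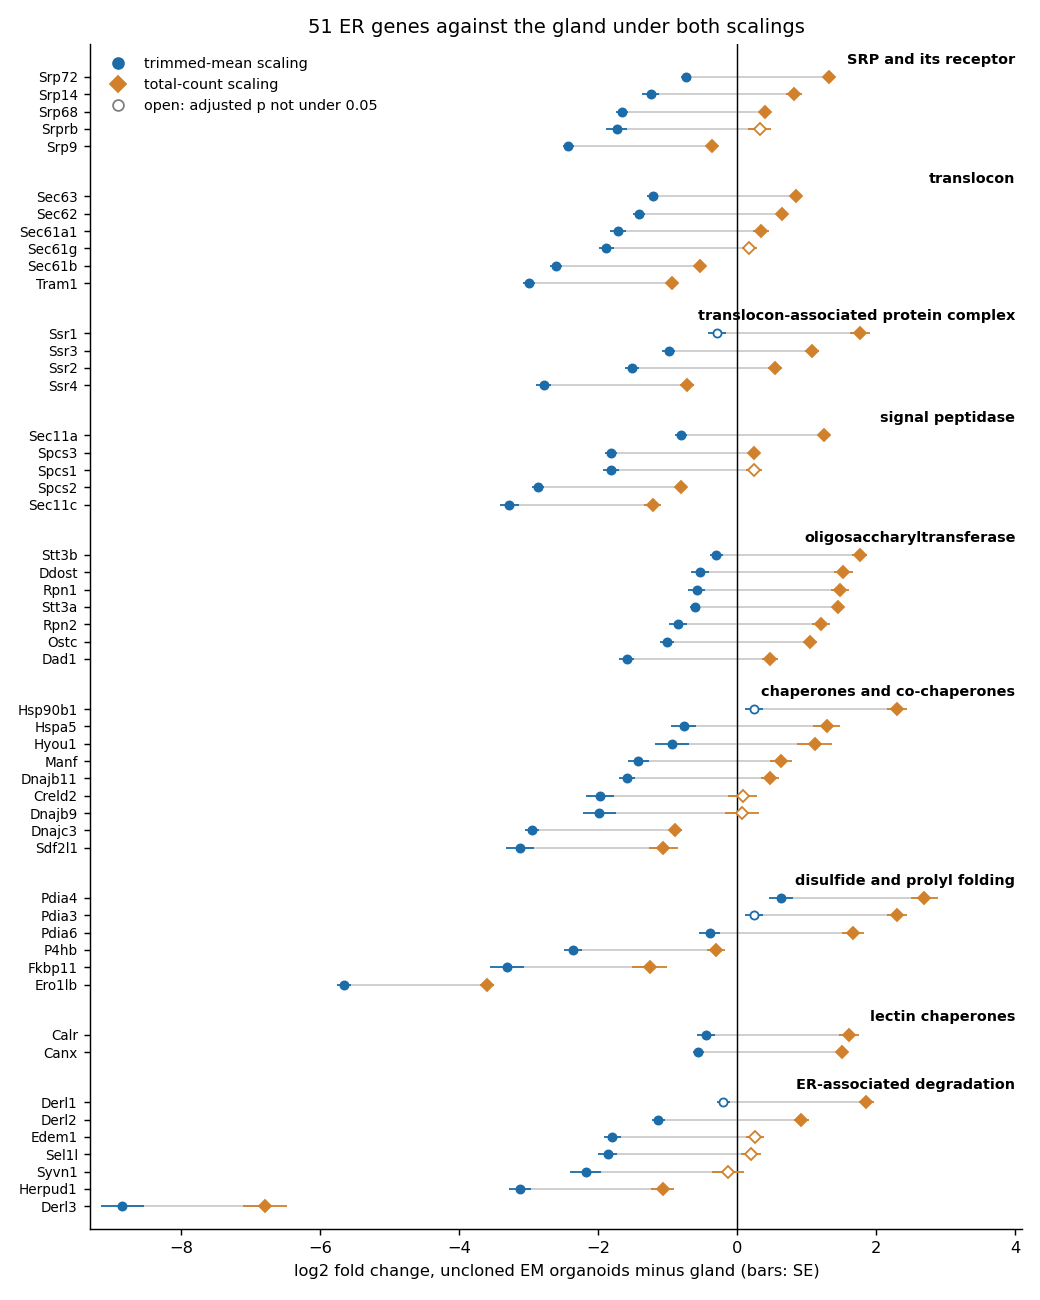
Log2 fold change of each of the 51 genes, uncloned EM organoids minus gland, grouped by role, with trimmed-mean scaling and with total-count scaling. Bars are SE, and open symbols did not pass an adjusted p of 0.05 by edgeR. The step between the scalings is nearly the same for every gene, and 25 genes go from lower to higher with it.

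In EM, 13 members were lower under both scalings: Srp9, Sec61b, Tram1, Ssr4, Spcs2, Sec11c, Dnajc3, Sdf2l1, P4hb, Ero1lb, Fkbp11, Herpud1 and Derl3. The same 13 were lower under both scalings in DM. Another 25 members in EM, and 26 in DM, were lower with trimmed means and higher with total counts. Another 8 in EM, and 7 in DM, were lower with trimmed means and not called with total counts. Pdia4 was higher with both in EM and DM, and Pdia3 in DM. All 7 oligosaccharyltransferase genes turned from lower to higher in either medium, and both lectin chaperones did in EM. Of the 7 degradation genes, 1 did so in EM, Derl2.

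All 5 SRP genes were lower with trimmed means, with a median of -1.66 in EM and in DM, and 3 of them were higher with total counts in each. Srp9, a small subunit that binds the SRP RNA, stood at 175, 170.3 and 186 CPM in gland tissue, 33.0, 32.4 and 33.3 CPM under EM and 36.2, 35.9 and 31.8 CPM under DM, in the order of lines 6, 7 and 8. No organoid library came near the gland (-2.43 ± 0.08, adjusted p = 5.62e-10 in EM; -2.36 ± 0.08, adjusted p = 6.22e-10 in DM), and it was lower with total counts too (-0.37 and -0.38). Srp72, a large protein subunit, was the least changed, with 239, 241 and 234 CPM in gland tissue, 151, 144 and 134 CPM under EM and 136, 135 and 134 CPM under DM. All organoid libraries were below the gland (-0.74 ± 0.07, adjusted p = 3.15e-06 in EM; -0.82 ± 0.07, adjusted p = 1.27e-06 in DM), while with total counts it was higher (1.32 and 1.15). A near-identical copy of Srp9 exists in the genome, so its level is uncertain.

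The 6 translocon genes were all lower with trimmed means, with medians of -1.80 in EM and -1.72 in DM, and 3 were higher with total counts in each. Sec61b, the beta subunit of the channel, stood at 275, 247 and 266 CPM in gland tissue, 40.4, 42.4 and 47.0 CPM under EM and 55.5, 51.5 and 52.6 CPM under DM. The gland is far above both media, and every DM library is above every EM library (-2.60 ± 0.09, adjusted p = 5.01e-10 in EM; -2.30 ± 0.09, adjusted p = 9.72e-10 in DM); with total counts it was lower too (-0.54 and -0.33). Tram1, a membrane protein beside the channel, fell furthest, with 618, 589 and 601 CPM in gland tissue, 75.9, 69.6 and 81.2 CPM under EM and 80.3, 74.0 and 83.4 CPM under DM. EM and DM overlap each other far below the gland (-3.00 ± 0.09, adjusted p = 2.67e-10 in EM; -2.93 ± 0.09, adjusted p = 2.95e-10 in DM), and it was lower with total counts too (-0.94 and -0.95). Sec63, which brings BiP to the channel, was the least changed, with 241, 233 and 251 CPM in gland tissue, 110.4, 101 and 100.1 CPM under EM and 94.9, 94.5 and 104 CPM under DM. It was lower with no overlap (-1.22 ± 0.08, adjusted p = 9.38e-08 in EM; -1.30 ± 0.08, adjusted p = 5.11e-08 in DM), while with total counts it was higher (0.84 and 0.67). Sec61b has 3 near-identical copies.

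The translocon-associated complex, which helps some chains enter the channel, had subunits far apart. Ssr4, its delta subunit, stood at 488, 390.1 and 474 CPM in gland tissue, 64.1, 66.7 and 65.4 CPM under EM and 97.3, 84.0 and 82.4 CPM under DM. It was lower with no overlap (-2.78 ± 0.11, adjusted p = 1.47e-09 in EM; -2.36 ± 0.11, adjusted p = 4.36e-09 in DM), and with total counts too (-0.72 and -0.39). Ssr1, its alpha subunit, stood at 195, 169 and 232 CPM in gland tissue, 169, 149 and 167 CPM under EM and 133, 131 and 167 CPM under DM. EM overlaps the gland and DM does not (-0.30 ± 0.13, adjusted p = 0.0565 in EM; -0.47 ± 0.13, adjusted p = 0.00641 in DM), and with total counts Ssr1 was higher in both (1.76 and 1.50). Without the gland of line 7, Ssr1 was lower in EM also (-0.39, adjusted p = 0.0212), and without the DM library of line 8 as well (-0.29, adjusted p = 0.0250).

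Signal peptidase has alternative catalytic subunits, Sec11a and Sec11c, and their balance differed between gland and organoid. Sec11c stood at 674, 570.2 and 599.7 CPM in gland tissue, 64.4, 66.8 and 58.7 CPM under EM and 95.7, 96.7 and 70.3 CPM under DM. It was lower with no overlap (-3.28 ± 0.14, adjusted p = 2.46e-09 in EM; -2.81 ± 0.13, adjusted p = 6.41e-09 in DM), and with total counts too (-1.22 and -0.84). Sec11a stood at 91.1, 79.1 and 91.3 CPM in gland tissue, 50.1, 50.1 and 49.3 CPM under EM and 52.2, 52.9 and 48.8 CPM under DM. It was lower with no overlap (-0.81 ± 0.08, adjusted p = 3.46e-06 in EM; -0.77 ± 0.08, adjusted p = 5.23e-06 in DM), while with total counts it was higher (1.25 and 1.21). The ratio of their levels per kilobase of exon within a library needs no scaling. Sec11c over Sec11a was 5.02, 4.88 and 4.45 in the gland, 0.871, 0.904 and 0.806 in EM and 1.24, 1.24 and 0.975 in DM. Sec11c was the major form in every gland library and about level with Sec11a in organoids.

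With trimmed means the oligosaccharyltransferase lay closest to the gland among the roles of more than 2 genes, with medians of -0.61 in EM and -0.70 in DM. With total counts it was the furthest above the gland of those roles, at 1.45 and 1.27. Stt3b, the catalytic subunit that can also act on chains past the channel, stood at 181, 182 and 204 CPM in gland tissue, 157, 153 and 150.0 CPM under EM and 138, 135 and 164 CPM under DM. The difference is small and without overlap (-0.30 ± 0.09, adjusted p = 0.0121 in EM; -0.38 ± 0.09, adjusted p = 0.00330 in DM), and with total counts it was higher (1.76 and 1.60). Without the gland of line 8 its EM difference missed the threshold (-0.23, adjusted p = 0.0575). Dad1, a small subunit that stabilises the complex, was the lowest of the 7 in EM and near Rpn2 (-1.14), the lowest, in DM. It stood at 139.9, 117 and 144 CPM in gland tissue, 44.1, 43.9 and 45.3 CPM under EM and 67.5, 63.8 and 53.3 CPM under DM. The DM libraries lie between EM and gland (-1.59 ± 0.11, adjusted p = 1.40e-07 in EM; -1.12 ± 0.11, adjusted p = 2.17e-06 in DM), and with total counts Dad1 was higher (0.47 and 0.85). Stt3a over Stt3b per kilobase, the balance of the catalytic subunits, was 0.670, 0.663 and 0.641 in the gland, 0.535, 0.517 and 0.541 in EM and 0.633, 0.580 and 0.527 in DM. Every uncloned organoid library lay below every gland library in this ratio, the DM library of line 6 by a narrow margin. Clone libraries ran from 0.437 to 0.660, and the highest, of labelled KO clone 2 in EM, lay above the gland of line 8.

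Of the 9 chaperones and co-chaperones, 8 were lower in EM and 8 in DM with trimmed means, with medians of -1.58 and -1.40, and 5 were higher and 2 lower with total counts in each. BiP (Hspa5), the main Hsp70 chaperone of the ER, stood at 1233, 1134 and 1922 CPM in gland tissue, 933, 786 and 800.5 CPM under EM and 856, 790.2 and 921 CPM under DM. The gland of line 8 was well above the other two, and no organoid library reached the gland (-0.77 ± 0.18, adjusted p = 0.00221 in EM; -0.74 ± 0.18, adjusted p = 0.00275 in DM), while with total counts BiP was higher (1.28 and 1.23). Hsp90b1 (Grp94), the Hsp90 chaperone of the ER, stood at 573, 511 and 693 CPM in gland tissue, 753, 659 and 684 CPM under EM and 611, 619 and 754 CPM under DM. These ranges overlap (0.24 ± 0.13, adjusted p = 0.116 in EM; 0.16 ± 0.13, adjusted p = 0.280 in DM), and with total counts it was higher (2.29 and 2.13). Without the gland of line 8, Hsp90b1 was higher in EM with trimmed means also (0.37, adjusted p = 0.0235).

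Sdf2l1, a partner of BiP's co-chaperones, was the lowest of the chaperone group, with 106, 71.8 and 121 CPM in gland tissue, 12.5, 10.8 and 11.1 CPM under EM and 8.10, 9.61 and 12.8 CPM under DM. It was lower with no overlap (-3.12 ± 0.20, adjusted p = 9.85e-08 in EM; -3.29 ± 0.21, adjusted p = 6.55e-08 in DM), and with total counts too (-1.07 and -1.32). Per kilobase, Hsp90b1 over BiP was 0.488, 0.473 and 0.378 in the gland, 0.846, 0.880 and 0.896 in EM and 0.749, 0.822 and 0.859 in DM. Sdf2l1 over BiP was 0.328, 0.242 and 0.240 in the gland and between 0.0361 and 0.0528 in uncloned organoids. The chaperones' proportions thus differed between gland and uncloned organoid under any scaling. In clone libraries Hsp90b1 over BiP ran from 0.511 to 0.652, nearer to the gland, and Sdf2l1 over BiP from 0.0291 to 0.0554. These pairs were chosen after their values were seen.

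The genes for disulfide bonds and prolyl folding held calls in both directions. Pdia4, a member of the protein disulfide isomerase family, stood at 97.5, 82.0 and 147 CPM in gland tissue, 171, 164 and 174 CPM under EM and 197, 194 and 234 CPM under DM. Every organoid library was above every gland library (0.63 ± 0.17, adjusted p = 0.00601 in EM; 0.93 ± 0.17, adjusted p = 4.70e-04 in DM), and with total counts it was higher too (2.69 and 2.90). Pdia3, which works with the lectin chaperones, stood at 464, 378 and 535 CPM in gland tissue, 565, 516 and 546 CPM under EM and 584, 571 and 671 CPM under DM and was higher in DM only by the test (0.24 ± 0.13, adjusted p = 0.102 in EM; 0.41 ± 0.13, adjusted p = 0.0115 in DM); with total counts it was higher in both (2.30 and 2.38). P4hb, the founding member of the family, went the other way, with 4331, 4043 and 4419 CPM in gland tissue, 858, 775 and 849 CPM under EM and 630.5, 613 and 809.7 CPM under DM. It was lower with no overlap (-2.37 ± 0.13, adjusted p = 2.35e-08 in EM; -2.64 ± 0.13, adjusted p = 9.72e-09 in DM), and with total counts too (-0.31 and -0.67). In the gland P4hb had the highest level per kilobase of all members. Pdia4 over P4hb per kilobase was 0.0268, 0.0242 and 0.0396 in the gland, 0.238, 0.252 and 0.244 in EM and 0.373, 0.378 and 0.344 in DM. P4hb, and this ratio, were chosen after their values were seen.

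Ero1lb (Ero1b), the ER oxidase known from secretory cells such as those of the pancreas, stood at 350.3, 367 and 389.5 CPM in gland tissue, 7.22, 6.98 and 7.70 CPM under EM and 4.05, 4.27 and 4.95 CPM under DM. It was 50.5-fold lower in EM and 83.1-fold lower in DM (-5.66 ± 0.10, adjusted p = 1.99e-11 in EM; -6.38 ± 0.11, adjusted p = 1.79e-11 in DM), and lower with total counts too (-3.60 and -4.40). Ero1l (Ero1a), its paralogue, is not a member but had the smallest p of the rises among the other pathway genes, with 33.6, 31.9 and 43.2 CPM in gland tissue, 1914, 1379 and 1340 CPM under EM and 846, 661 and 901 CPM under DM. It was higher with no overlap (5.41 ± 0.21, adjusted p = 1.42e-09 in EM; 4.46 ± 0.20, adjusted p = 4.36e-09 in DM). Ero1lb over Ero1l per kilobase was 8.29, 9.14 and 7.16 in the gland, at most 0.00513 in any uncloned organoid library and at most 0.0209 in any clone library. The more abundant oxidase transcript was Ero1lb in every gland library and Ero1l in every organoid library. A near-identical copy of Ero1lb exists in the genome.

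The lectin chaperones, which hold glycoproteins while they fold, lay close to the gland with trimmed means. Calreticulin (Calr) stood at 842, 676 and 996 CPM in gland tissue, 651, 570.4 and 618 CPM under EM and 679, 675 and 764 CPM under DM. EM lies below the gland and DM overlaps it (-0.45 ± 0.13, adjusted p = 0.00935 in EM; -0.25 ± 0.13, adjusted p = 0.111 in DM). Without the gland of line 8, Calr in EM missed the threshold (-0.30, adjusted p = 0.0501), and without that of line 7 it was lower in DM (-0.37, adjusted p = 0.0162). Calnexin (Canx), its membrane-bound relative, stood at 539, 555 and 549.9 CPM in gland tissue, 394, 354 and 369 CPM under EM and 348, 322 and 372 CPM under DM, with no overlap (-0.56 ± 0.09, adjusted p = 1.05e-04 in EM; -0.66 ± 0.09, adjusted p = 2.78e-05 in DM). With total counts both were higher, Calr at 1.60 and 1.72 and Canx at 1.50 and 1.32.

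Of the 7 degradation genes, 6 were lower in EM and 7 in DM with trimmed means, with medians of -1.86 and -2.26, and 2 were lower and 2 higher with total counts in each. Derl3, a derlin of the machinery that draws failed chains out of the ER (ENSMUSG00000009092, chromosome 10, 75893413 to 75895941 on GRCm38), had the largest difference of the 51. It stood at 301, 197 and 383 CPM in gland tissue, 0.415, 0.731 and 0.745 CPM under EM and 0.410, 0.654 and 0.475 CPM under DM, where each organoid library held 8 to 20 counts. It was 458-fold lower in EM and 556-fold lower in DM (-8.84 ± 0.31, adjusted p = 6.71e-10 in EM; -9.12 ± 0.32, adjusted p = 5.95e-10 in DM), and lower with total counts too (-6.79 and -7.15). Derl1, its relative, stood at 94.1, 79.3 and 102 CPM in gland tissue, 82.7, 77.0 and 80.2 CPM under EM and 70.8, 69.1 and 69.8 CPM under DM. EM overlaps the gland and DM does not (-0.20 ± 0.09, adjusted p = 0.0683 in EM; -0.39 ± 0.09, adjusted p = 0.00230 in DM), and with total counts Derl1 was higher (1.86 and 1.58). Without the gland of line 7, Derl1 was lower in EM also (-0.28, adjusted p = 0.00969). Derl3 over Derl1 per kilobase was 5.34, 4.14 and 6.28 in the gland and at most 0.0158 in uncloned organoids. Derl3 over Derl2 was 17.2, 12.4 and 19.1 and at most 0.0971. Derl3 was the most abundant derlin transcript of the gland and the least abundant in culture.

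**Figure D2:**
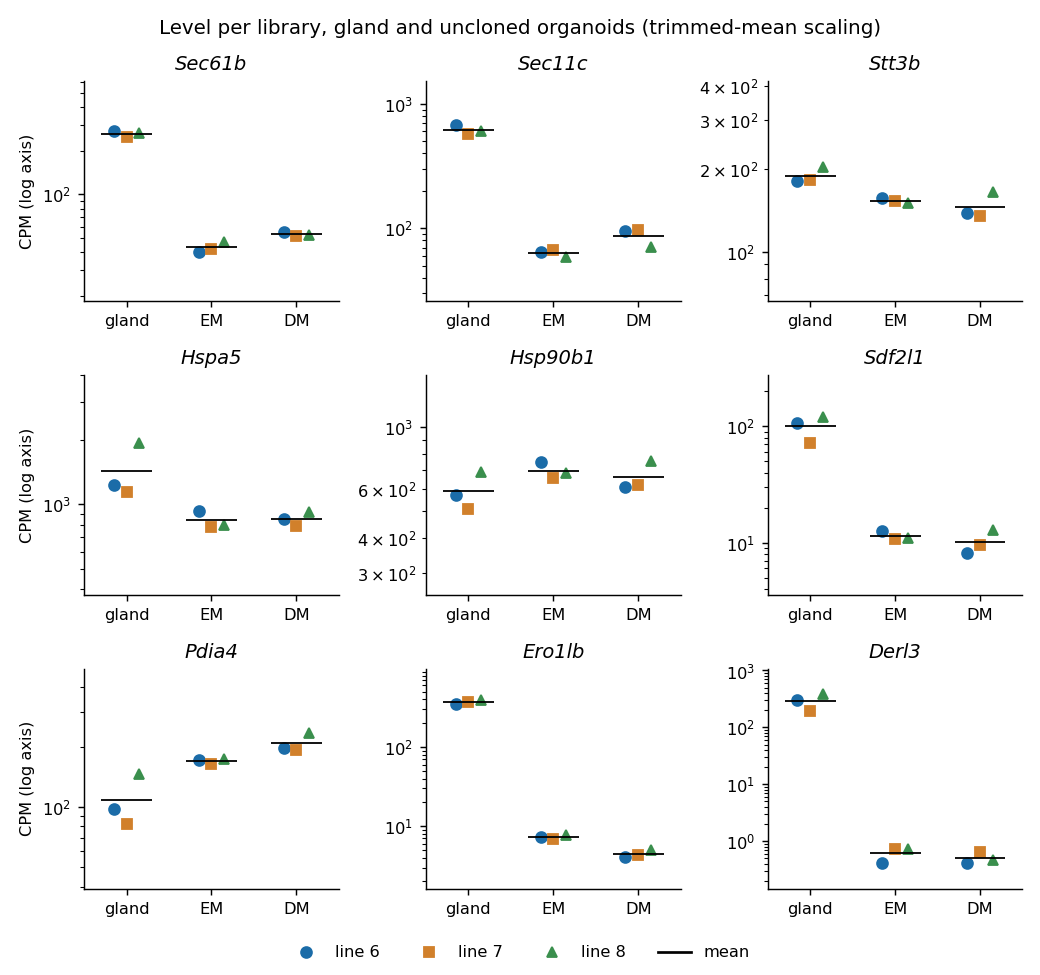
Level of 9 members in each library of the gland, uncloned EM and uncloned DM (CPM with trimmed-mean scaling, log axis), with 1 symbol for each of lines 6, 7 and 8 and the group mean as a bar. Derl3, Ero1lb, Sdf2l1, Sec11c and Sec61b are far higher in the gland, and Pdia4 is lower there. Stt3b and Hspa5 are higher in the gland by less, without overlap, and Hsp90b1 in organoids overlaps the gland.

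The 12 members with an ER stress response element in either form spanned this whole range. In EM minus gland they ran from Derl3 at -8.84 to Hsp90b1 at 0.24, with a median of -1.78, and 11 of the 12 were lower with trimmed means. The 29 members with a promoter and no element ran from -3.32 to 0.63 with a median of -1.42, and 26 were lower. With trimmed means Hspa5 and Hsp90b1 lay nearer to the gland than Herpud1, Ero1lb and Derl3, and all of them carry the element printed above.

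Markers of other cells moved with these differences. The 10 plasma cell markers, for another professional secretory cell, summed to 130.1, 38.5 and 31.4 CPM in the glands of lines 6, 7 and 8 and to between 0.357 and 0.987 CPM in uncloned organoids, with Igha, Igkc and Tnfrsf17 at 0 there. The 6 fibroblast markers summed to between 656 and 788 CPM in the gland and at most 0.538 CPM in uncloned organoids, with Col1a2, Col3a1 and Lum at 0. The 5 endothelial markers summed to between 50.4 and 67.0 CPM and at most 1.62 CPM, and the 6 macrophage markers to between 241 and 382 CPM and at most 23.7 CPM. With trimmed means 5 of the macrophage markers were lower and 1 higher in EM, and 5 were lower and 1 not called in DM. The part of these cells, and of the acinar and basal cells given above, in the ER differences was not tested.

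Of 103 other genes of the same pathways, 99 were tested. In EM, 66 were lower and 19 higher than in the gland with trimmed means, where 37.4% of all genes were lower and 37.4% higher. With total counts 9 were lower and 78 higher, where 9.49% and 83.8% of all genes were. In DM, 71 were lower and 20 higher with trimmed means, where 37.4% and 38.1% of all genes were. With total counts 14 were lower and 74 higher, where 9.27% and 84.0% of all genes were. Prdx4, a peroxiredoxin that also drives disulfide formation, stood at 19.5, 20.2 and 23.8 CPM in gland tissue, 66.3, 67.9 and 67.4 CPM under EM and 58.7, 52.6 and 63.8 CPM under DM and was higher (1.66 ± 0.11, adjusted p = 7.79e-08 in EM; 1.45 ± 0.11, adjusted p = 2.11e-07 in DM). Bhlha15 (Mist1), a transcription factor that scales up the secretory apparatus of acinar cells, stood at 1143, 1075 and 1150 CPM in gland tissue, 1.16, 1.06 and 1.12 CPM under EM and 0.564, 0.577 and 1.15 CPM under DM and was lower (-9.97 ± 0.19, adjusted p = 2.42e-11 in EM; -10.49 ± 0.20, adjusted p = 2.37e-11 in DM). Both groups of organoids lay clear of the gland in these genes.

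The glands themselves were not alike. Each gland was set against the mean of the other two, over genes with at least 10 CPM in that mean. In the gland of line 8, 8 members were at least 1.5-fold higher: Creld2, Derl3, Dnajb9, Herpud1, Hspa5, Hyou1, Pdia4 and Syvn1. That is 15.7% of members, against 1.38% of 8177 genes. In the glands of lines 6 and 7, 0 members were higher by this fold, against 0.648% and 0.807% of genes. Only rises were counted, and these glands held low values. In the gland of line 7, Fkbp11, Creld2 and Derl3 were at 0.507, 0.567 and 0.576 of the mean of the others. In that of line 6, Dnajb9 was at 0.532 and Hyou1 at 0.624. With 1 library there is no test of this, and the comparison was chosen after values were seen.

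Hyou1, a large chaperone that works with BiP, stood at 214, 225 and 459 CPM in the glands of lines 6, 7 and 8. Syvn1 (Hrd1), the ubiquitin ligase of ER-associated degradation, stood at 122, 123 and 241 CPM, and Herpud1, its partner, at 487, 505 and 770.3 CPM. The median ratio of the gland of line 8 to the others was 1.47 over chaperones and 1.44 over degradation genes, against 1.02 over the translocon and 1.06 over signal peptidase. It was 1.16 over the lectin chaperones and over the translocon-associated complex, 1.12 over the oligosaccharyltransferase, and 1.05 over SRP and its receptor, where single genes reached 1.44. Over the genes for disulfide bonds and prolyl folding it was 1.32, with Pdia4 at 1.64. The largest medians thus lay among chaperones and degradation genes, followed by disulfide and prolyl folding, with smaller ones in roles of entry. Xbp1, the factor that Ire1 activates, stood at 1069, 1359 and 1299 CPM, a ratio of 1.07. Atf4, downstream of Perk, stood at 406, 438 and 496 CPM, a ratio of 1.18. Over all listed sensors and regulators of the response to unfolded protein, ratios ran from 0.82 for Mbtps2 to 1.28 for Ern1, with Ern2 at 0 in every gland. Gene counts do not show whether these factors were active. The gland library of line 8 had the largest total count and the smallest sum of plasma cell markers of the glands, and their part was not tested. Without it, 43 members were lower and 3 higher in EM than in the gland.

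**Figure D3:**
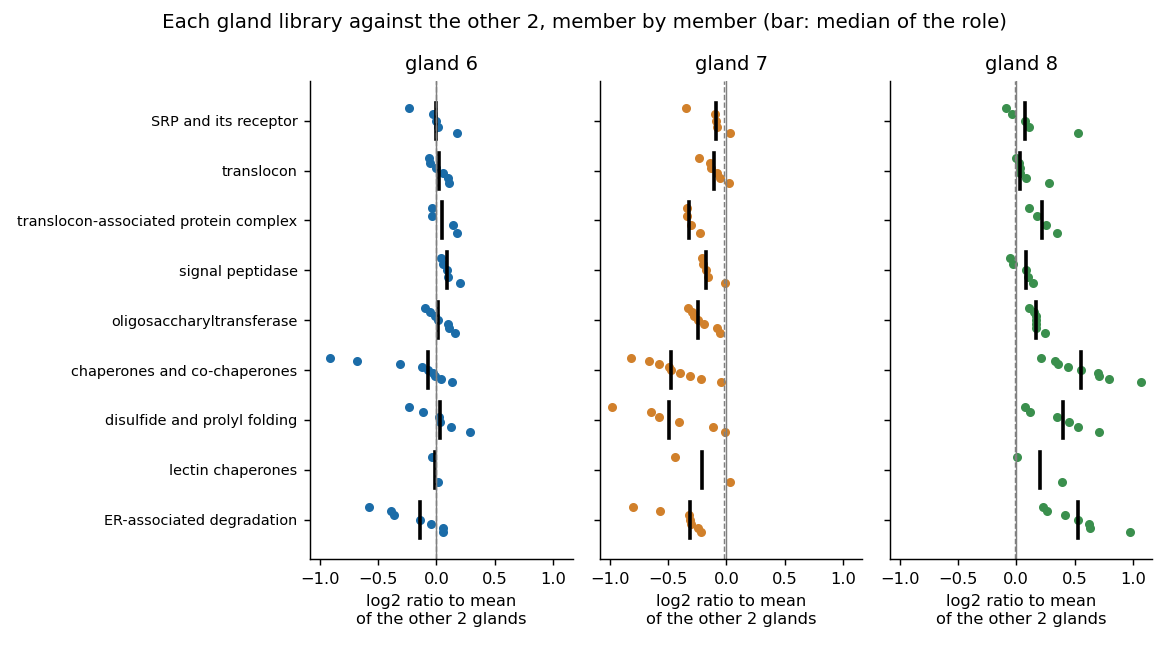
Log2 ratio of each member in a gland library to the mean of the other glands, by role, with the role's median as a black bar and the median of all genes as a dashed line. In the gland of line 8, chaperones, degradation genes and disulfide genes lie to the right of that line, while translocon and signal peptidase lie near it. In the gland of line 7 every role's median is below a ratio of 1, from 0.714 in disulfide genes and 0.719 in chaperones to 0.942 in SRP and its receptor.

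The next comparison, uncloned DM against uncloned EM, asks what the differentiation medium did to these genes. With trimmed means 7 members rose and 2 fell by edgeR, where 17.2% of all genes rose and 13.2% fell, so the rises are near the background and the falls below it. The rises were Sec61b, Ssr4, Spcs1, Sec11c, Dad1 and Ostc, of protein entry and glycosylation, and the isomerase Pdia6. Ero1lb fell, as did Sel1l, the adaptor of the Hrd1 ligase. With total counts 4 rose and 5 fell, where 14.2% and 19.0% of all genes did. The median member differed by 0.07, against 0.00 for all genes.

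Ero1lb had the smallest p, with 7.22, 6.98 and 7.70 CPM under EM and 4.05, 4.27 and 4.95 CPM under DM, each DM library below each EM library (-0.72 ± 0.10, adjusted p = 4.84e-04). Dad1 rose, with 44.1, 43.9 and 45.3 CPM under EM and 67.5, 63.8 and 53.3 CPM under DM and no overlap (0.47 ± 0.11, adjusted p = 0.00658). Ssr4 rose likewise, with 64.1, 66.7 and 65.4 CPM under EM and 97.3, 84.0 and 82.4 CPM under DM (0.43 ± 0.10, adjusted p = 0.00925). All 3 kept their call with total counts.

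Spcs1, a small non-catalytic subunit of signal peptidase, stood at 49.0, 43.5 and 45.5 CPM under EM and 70.8, 64.9 and 51.5 CPM under DM (0.44 ± 0.11, adjusted p = 0.0140). Sec11c stood at 64.4, 66.8 and 58.7 CPM under EM and 95.7, 96.7 and 70.3 CPM under DM (0.47 ± 0.13, adjusted p = 0.0164), and Sec61b at 40.4, 42.4 and 47.0 CPM under EM and 55.5, 51.5 and 52.6 CPM under DM (0.30 ± 0.08, adjusted p = 0.0190). In none of the 3 did EM and DM overlap, and in Spcs1 and Sec11c the DM library of line 8 was the lowest of its group. With total counts Sec61b missed the threshold (0.21 ± 0.09, adjusted p = 0.0834), and the rises of Ostc and Pdia6 were not called either.

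In every line each of the 7 rises went up and both falls went down from EM to DM. Single libraries set the count of calls: rises numbered 2 without the DM library of line 6, 3 without the EM library of line 7, 4 without the EM library of line 6 or of line 8, and 9 without the DM library of line 8. Falls numbered 4 without the DM library of line 8 and 1 without any other organoid library. Spcs1, Sec11c and Sec61b each missed the threshold without the DM library of line 6, at adjusted p of 0.0534, 0.0602 and 0.0587 by edgeR.

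Of the 99 other pathway genes tested, 11 rose and 15 fell with trimmed means, where 17.2% and 13.2% of all genes did. With total counts 9 rose and 29 fell, where 14.2% and 19.0% of all genes did. Dnajc10, a co-chaperone that reduces disulfides before degradation, stood at 58.2, 55.7 and 63.8 CPM under EM and 86.8, 85.7 and 87.9 CPM under DM and rose (0.55 ± 0.08, adjusted p = 3.41e-04). Eif2ak3 (Perk) stood at 31.1, 31.8 and 34.1 CPM under EM and 47.5, 49.6 and 46.3 CPM under DM and rose (0.56 ± 0.09, adjusted p = 7.23e-04). Ero1l fell alongside Ero1lb, with 1914, 1379 and 1340 CPM under EM and 846, 661 and 901 CPM under DM (-0.94 ± 0.17, adjusted p = 0.00185), and so did Asns, a target of Atf4, with 89.8, 68.5 and 82.4 CPM under EM and 34.4, 29.6 and 42.3 CPM under DM (-1.18 ± 0.14, adjusted p = 1.57e-04). The basal and myoepithelial markers summed to between 2511 and 2755 CPM under EM and between 4313 and 5435 CPM under DM, and their part in the medium effect was not tested.

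The same change of medium in the clones gave no call among the members by edgeR without a clone block. In WT clones 0 rose and 0 fell by edgeR, where 9.61% of all genes rose and 6.13% fell. At an unadjusted p under 0.05 there were 7 members, where 31.3% of all genes were, and DESeq2 called 2 higher and 1 lower, where 12.3% and 8.19% of all genes were. With total counts 0 rose and 1 fell there, where 8.47% and 8.01% of all genes did. In labelled KO clones 0 rose and 0 fell by edgeR, where 4.94% of all genes rose and 3.41% fell. At an unadjusted p under 0.05 there were 3 members, where 24.6% of all genes were, and DESeq2 called 0, where 7.94% of all genes rose and 5.87% fell. EM and DM of a number come from the same clone, and with the clone as a block edgeR called 2 higher in WT (Pdia6 and Fkbp11) and 2 lower (P4hb and Srp9), and 1 lower in labelled KO (Hsp90b1, -0.41, adjusted p = 0.0487).

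P4hb stood at 1374 and 1414 CPM in WT EM and 751 and 1034 CPM in WT DM (-0.64 ± 0.18, adjusted p = 0.0528, and -0.66, adjusted p = 0.0171 with the block). In labelled KO it stood at 695 and 806 CPM under EM and 579.7 and 647 CPM under DM (-0.29 ± 0.18, adjusted p = 0.381). DM was below EM in all 4 clones. Fkbp11, a prolyl isomerase of secretory tissue, stood at 11.4 and 10.5 CPM in WT EM, 23.7 and 14.6 CPM in WT DM, 16.4 and 13.2 CPM in labelled KO EM and 10.2 and 11.8 CPM in labelled KO DM. DM was above EM in both WT clones and below it in both labelled KO clones, and the difference between labels was not called (-1.24 ± 0.36, adjusted p = 0.460). Both genes are described because of their values.

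The 9 members called between media in uncloned organoids had the same sign in WT clones in 9 cases and in labelled KO clones in 5, where over all members it was 32 of 51 for each. Some of these signs rest on values near 0, such as Sec61b at 0.006 in WT and -0.010 in labelled KO, and Pdia6 at -0.002 in labelled KO. The WT clones differed from each other in sign for Sec61b, Sec11c, Ostc and Ero1lb. The share over all genes was not taken, so these counts show no difference between labels. Whether WT and labelled KO clones responded differently is what the interaction of label and medium tests. By edgeR 0 members were called in it, where 0% of all genes were. At an unadjusted p under 0.05 there were 2 members, where 7.88% of all genes were, and DESeq2 called 0, where 0.316% of all genes were higher and 1.26% lower. Both WT clones moved one way and both labelled KO clones the other in 6 of the 51 members, where 7.93% of all genes did so.

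**Figure D4:**
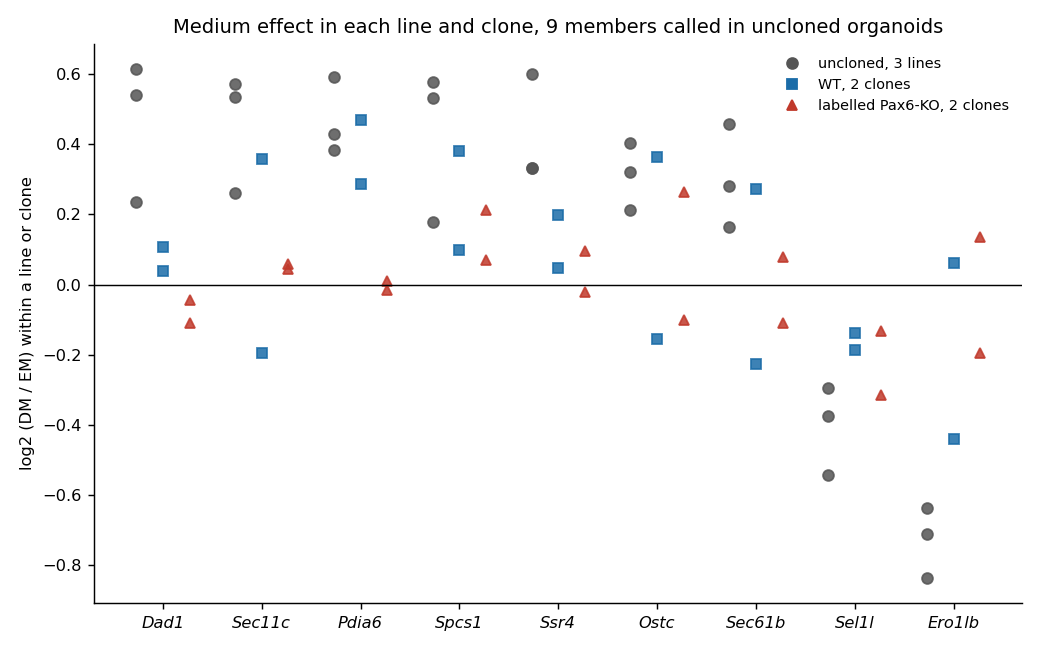
Log2 ratio of DM to EM within each uncloned line, WT clone and labelled Pax6-KO clone for the 9 members called between media in uncloned organoids. For each gene the uncloned points lie on 1 side of 0, within -0.84 and 0.61 over all genes, while the clone points lie within -0.44 and 0.47 and in several genes on both sides of 0.

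Labelled KO clones were compared with WT clones in each medium, to see whether the ER genes moved with the label. In EM, 4 members were lower and 0 higher by edgeR, where 4.41% of all genes were lower and 5.38% higher: Spcs3, Stt3b, Ssr3 and P4hb. In DM, 3 were lower and 0 higher, where 3.08% of all genes were lower and 2.39% higher: Spcs3, Stt3b and Dad1. The fit treats EM and DM libraries of a clone as separate when it estimates the spread. They deviated together, so p-values between labels may be too small. With only the groups compared, 0 members were lower in DM. At an unadjusted p under 0.05 there were 14 of the 51 members in EM, where 27.4% of all genes were, and 20 in DM, where 24.4% were. The count in EM is thus near that background. DESeq2 called 6 lower and 0 higher in EM, where 7.74% and 8.13% of all genes were, and 10 lower and 0 higher in DM, where 6.90% and 5.35% were. The median member differed by -0.17 in EM and -0.25 in DM (log2), against 0.01 and -0.01 for all genes.

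Spcs3, a glycoprotein subunit of signal peptidase (ENSMUSG00000054408, chromosome 8, 54520433 to 54529998 on GRCm38), stood at 132 and 124 CPM in WT EM, 133 and 138 CPM in WT DM, 78.4 and 82.9 CPM in labelled KO EM and 81.3 and 82.3 CPM in labelled KO DM. The labels did not overlap in either medium (-0.67 ± 0.09, adjusted p = 0.00835 in EM; -0.73 ± 0.09, adjusted p = 0.0147 in DM). Stt3b (ENSMUSG00000032437, chromosome 9, 115242581 to 115310421) stood at 242 and 245 CPM in WT EM, 211 and 226 CPM in WT DM, 167 and 166 CPM in labelled KO EM and 157 and 149.8 CPM in labelled KO DM. Again the labels did not overlap (-0.55 ± 0.09, adjusted p = 0.0148 in EM; -0.51 ± 0.09, adjusted p = 0.0292 in DM).

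Ssr3, the gamma subunit of the translocon-associated complex, stood at 508 and 506 CPM in WT EM and 346 and 369.8 CPM in labelled KO EM (-0.50 ± 0.10, adjusted p = 0.0265), and at 443 and 455 CPM and 360.2 and 342 CPM in DM (-0.35 ± 0.10, adjusted p = 0.0857). Dad1 stood at 96.1 and 88.5 CPM in WT DM and 61.0 and 70.2 CPM in labelled KO DM (-0.49 ± 0.11, adjusted p = 0.0485), and at 89.2 and 86.1 CPM and 65.8 and 72.4 CPM in EM (-0.34 ± 0.11, adjusted p = 0.0937). In both genes the labels lay apart in either medium. P4hb, named after its values were seen, was lower in labelled KO in EM (-0.89 ± 0.18, adjusted p = 0.0280) and was not called in DM (-0.54 ± 0.18, adjusted p = 0.128).

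**Figure D5:**
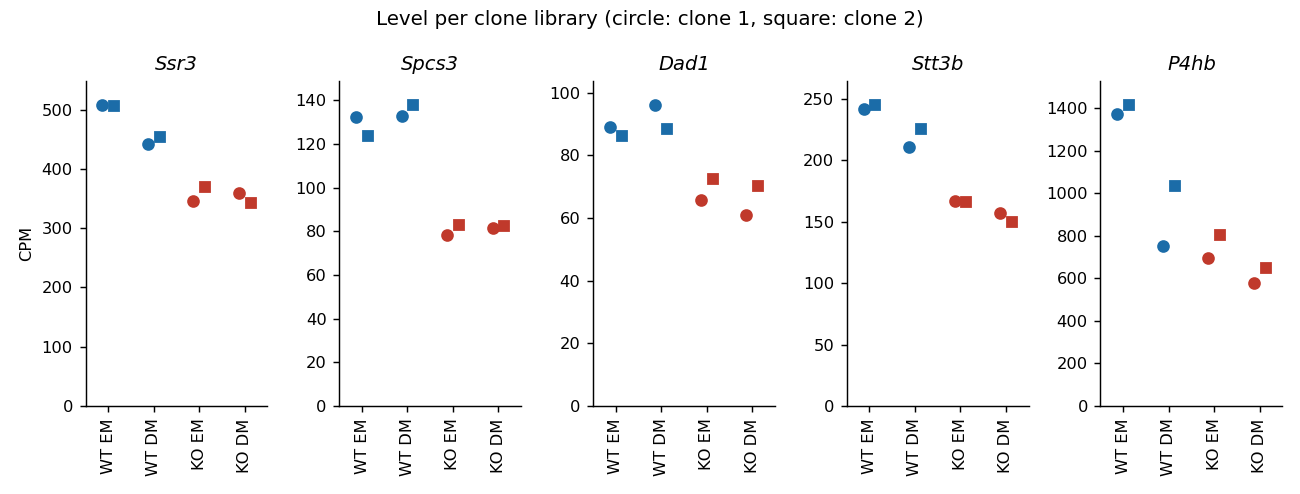
Level in each clone library (CPM with trimmed-mean scaling, axis from 0) of the 5 members called between labels in EM or in DM, for WT and labelled Pax6-KO, with clone 1 as circles and clone 2 as squares. In each medium every labelled KO point lies below every WT point, and Spcs3 and Stt3b show a like gap in EM and in DM.

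In EM, 24 of the 51 members had both labelled KO libraries below both WT libraries, where 30.4% of all genes did, and 4 had both above, where 31.1% did. In DM, 35 of the 51 had both below, where 26.3% of all genes did, and 1 had both above, where 26.3% did. With 2 clones per label, differences between clones and between labels cannot be told apart beyond the spread of each pair. The count of members lower in EM was 0 without either labelled KO library in EM and 1 without the first WT clone in EM. In DM it was 0 without either labelled KO library in DM, and 1 without the first WT clone in DM or without either labelled KO library in EM. The 6 macrophage markers summed to between 98.2 and 192 CPM in WT and between 31.3 and 63.4 CPM in labelled KO libraries, with Adgre1, C1qa and C1qb at 0 in every clone library. The 8 acinar markers summed to between 234 and 273 CPM in WT EM and between 681 and 684 CPM in labelled KO EM. In DM the labels overlapped (277 to 513 CPM in WT and 346 to 411 CPM in labelled KO). Single markers went against the sum in EM: Chrm3 was at 0 in every labelled KO library, and Car6 in both labelled KO DM libraries. None of the 8 was at 0 in both WT libraries of either medium. The part of the macrophage or the acinar list was not tested.

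Of the 99 other pathway genes tested, 4 were higher and 4 lower in labelled KO in EM, where 5.38% and 4.41% of all genes were. In DM, 1 was higher and 3 lower, where 2.39% and 3.08% of all genes were. These counts are near or below that background. Ero1l stood at 2090 and 1549 CPM in WT EM and 722 and 639 CPM in labelled KO EM and was lower (-1.42 ± 0.22, adjusted p = 0.0125). Creb3l2, a membrane-bound factor built like Atf6 that supports secretion, stood at 57.8 and 50.6 CPM and 27.8 and 32.3 CPM and was lower (-0.85 ± 0.12, adjusted p = 0.00991). Selenom, a selenoprotein of the ER, stood at 5.44 and 4.13 CPM and 15.6 and 10.4 CPM and was higher (1.44 ± 0.24, adjusted p = 0.0171). The labels did not overlap in these 3 genes.

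Sec61g, the gamma subunit of the channel, could be read in the first table only. It stood at 103, 91.9 and 99.3 CPM in gland tissue, 28.0, 25.0 and 26.7 CPM under EM and 37.2, 29.0 and 29.2 CPM under DM, yet held 8 to 21 counts in each clone library, or 0.404 to 1.20 CPM. In CPM of all counts, WT EM clones were 72.3-fold below uncloned EM, where the other members ran from 0.457 to 2.52 times their uncloned level, in tables that were made separately. Sec61g has 4 near-identical copies in the genome, and the tables list 38293 and 55487 gene IDs. Whether its reads in the clones went to a copy was not tested, and its clone values are uncertain. Near-identical copies exist for 6 members in all, which are Sec61g, Srp9, Sec61b, Spcs2, Ero1lb and Derl1. Exon bases of 19 members are shared with another gene, such as those of Srprb with Gm20425 on the same strand and of Spcs3 with Asb5 on the other, and no source used here gives the strand setting of the counting.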

How the data were processed

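The deposited files are 2 tables of raw gene counts that the authors made with STAR and featureCounts on GRCm38, per the submitters' processing notes, from stranded polyA libraries, per the labels' protocols; no source used here gives versions or the strand setting. Each table was fitted alone with edgeR 4.0.16 in R 4.3.3 (filterByExpr with a minimum count of 10 and total of 15, trimmed-mean scaling, 1 mean per group, quasi-likelihood test, Benjamini-Hochberg over all 13713 or 14282 genes tested, called at an adjusted p under 0.05). Residual degrees of freedom were 6 and 4, and the biological coefficient of variation was 0.138 and 0.234. The code was tested on simulated data. Alternatives were total-count scaling, total counts without the 10 most abundant gland genes, DESeq2 size factors, DESeq2 1.42.0, no filter, only the groups compared, a replicate block and leaving out each library.

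The 51 members, the other pathway genes and the marker lists were chosen with earlier results of these data known. Values per library are given for the highest and lowest member of each role in EM minus gland, members whose call against tissue differs in direction between media, the 6 smallest p between uncloned media, up to 3 called members per clone comparison, Hspa5 and Sec61b, and for up to 2 rises and 2 falls of the other pathway genes; other genes are marked as chosen for their values or illustrate a listed set. EM and DM libraries of a clone come from the same line and deviated together (correlation 0.60 in WT and 0.51 in KO). Uncloned EM and DM of a number correlated at 0.18, 0.12 and 0.09, and tissue with organoids between -0.07 and 0.08. Levels per kilobase use GENCODE M21 exon lengths. Proteins were not used here.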

Additional observations from a re-analysis of the deposited data

Results flagged for a closer look

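In 6 of the 51 members both WT clones moved one way between EM and DM and both labelled KO clones moved the other way, which is 11.8% of the members, where 7.93% of all genes did so. The difference of the log2 medium effects, labelled KO minus WT, was 0.2109 for Sec62, -0.3063 for Ssr2, -0.1488 for Dad1, -0.6942 for Sdf2l1, -0.4982 for Creld2 and -1.2372 for Fkbp11. None of the 6 passed the interaction test of edgeR, with adjusted p of 0.827, 0.838, 0.903, 0.735, 0.545 and 0.460 in that order.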

How the results depend on the processing

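Scaling changed the comparisons with the gland most. With total counts 30 members were higher and 13 lower in EM, 31 higher and 13 lower in DM, and 4 higher and 5 lower between uncloned media. With total counts that left out the 10 most abundant gland genes, 4 were higher in EM, 4 in DM, and 4 higher and 5 lower between media. With total counts the sign turned in EM minus gland for Srp72 1.32, Sec63 0.84, Ssr1 1.76, Sec11a 1.25, Stt3b 1.76, Dad1 0.47, Calr 1.60, Canx 1.50, Derl1 1.86 and Hspa5 1.28, and in DM minus gland for Srp72 1.15, Sec63 0.67, Ssr1 1.50, Sec11a 1.21, Stt3b 1.60, Dad1 0.85, Calr 1.72, Canx 1.32, Derl1 1.58 and Hspa5 1.23 (log2). Without the 10 genes it turned in EM for Ssr1 0.18, Stt3b 0.18, Calr 0.027 and Derl1 0.28, and in DM for Stt3b 0.017 and Calr 0.14. With total counts the median of all genes was 2.06 in EM minus gland and 1.98 in DM minus gland (log2). With trimmed means it was 0.01 and 0.02. That median was not taken for the scaling without the 10 genes. Without the filter on low counts, 3 members were higher in EM minus gland, 1 higher and 1 lower in WT DM minus EM, 1 higher and 7 lower in labelled KO minus WT in EM, 12 lower in DM, and 1 lower in the interaction. DESeq2 called 2 higher and 1 lower in WT DM minus EM and 10 lower in labelled KO minus WT in DM, and total counts 1 lower in WT DM minus EM. With only the groups compared, 1 was lower in labelled KO DM minus EM, and 0 in labelled KO minus WT in DM. With the replicate block, 2 were higher in EM minus gland, 2 higher and 2 lower in WT DM minus EM, and 1 lower in labelled KO DM minus EM; between uncloned media it gave 7 higher and 3 lower, and the clones of 2 labels cannot be blocked since each clone has 1 label. Leaving out each library gave 1 to 3 higher and 43 to 48 lower in EM minus gland, 2 to 2 and 46 to 47 in DM minus gland, 2 to 9 and 1 to 4 between uncloned media, 0 to 2 and 0 to 1 in WT, 0 and 0 in labelled KO, 0 and 0 to 4 in labelled KO minus WT in EM, 0 and 0 to 3 in DM, and 0 and 0 in the interaction. Where this left 1 library in a group, that library was taken to vary like the other groups. The cause of the changes with processing was not tested. Depth limits Derl3 in organoids (8 to 20 counts) and Sec61g in clones, and 2 clones per label limit every comparison between labels.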
